A study of Mus musculus with 8 samples.

Results

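ILC1-like cells of the liver were picked from scRNAseq libraries by the UMIs (unique molecular identifiers, each standing for 1 captured mRNA) of 17 genes, and 1443 of 48465 kept cells met the rule. A kept barcode had 200 to 2500 detected genes and at most 30% of its UMIs from mitochondrial genes. A member had a UMI of Ncr1 or Klrb1c, UMIs of at least 2 of Itga1, Cxcr6, Cd200r1, Tnfsf10 and Gzmc, and 0 UMIs of 10 genes that mark T cells (Cd3e, Cd3d, Trac), conventional NK cells (Eomes, Itgam), cycling cells (Mki67, Top2a), endothelial cells (Kdr), B cells (Cd79a) and Kupffer cells (Clec4f). Measured values therefore chose the members, and the levels of these 17 genes are given as a description with no test.

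The mice were female, 9 weeks old, of genotype C57BL/6J, and carried no tumor. BG mice (replicates 5 to 8, n = 4) received 1.2 mg of BG, the soluble yeast β-glucan Imprime PGG (odetiglucan), by the intravenous route and were examined at day 2, whereas Control mice (replicates 1 to 4, n = 4) were untreated. Each library held the CD45+ cells of 1 liver, together with cells that a density gradient had recovered from the flow-through of the CD45 isolation. The comparison asked how ILC1-like cells differed between BG-treated and untreated livers, with the mouse as the replicate. Below, the 4 values of a group stand in the order of the replicate numbers, and levels are CPM (counts per 1e6 UMIs) from the UMIs summed over the ILC1-like cells of a mouse.

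Type 1 innate lymphoid cells (ILC1s) are lymphocytes without a rearranged antigen receptor that stay resident in tissue. In the mouse liver they share the natural cytotoxicity receptor NKp46 (Ncr1) and NK1.1 (Klrb1c) with conventional NK cells, and differ from them by the collagen-binding integrin CD49a (Itga1), the chemokine receptor CXCR6 (Cxcr6), the death ligand TRAIL (Tnfsf10) and the lack of the transcription factor EOMES. They are known as early sources of interferon gamma and as killers of tumor cells, and liver metastasis was the subject of the study. Type I interferons signal through their receptor to a shared promoter element, the interferon-stimulated response element, and switch on antiviral genes in most cell types, lymphocytes included.

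BG livers gave 83, 148, 164 and 204 ILC1-like cells, and Control livers gave 293, 142, 228 and 181. These cells had a median of 2221 to 3273 UMIs in BG mice and of 2120.5 to 3054 UMIs in Control mice. Of 599 BG cells, 324 had UMIs of exactly 2 of the 5 genes, 184 of 3, 79 of 4 and 12 of 5. Of 844 Control cells, 476 had 2, 270 had 3, 86 had 4 and 12 had 5 of them. Cells just outside the rule, with 1 of the 5 genes and all other conditions met, numbered 307 in BG and 469 in Control mice. Genes that the rule did not use gave these values just inside and just outside: over the 8 mice, Tyrobp averaged 2539 CPM in cells with 2 of 5 genes against 2395 CPM in cells with 1 of 5, Cd7 1615 against 1487 CPM, Gzma 6617 against 5190.3 CPM, and Gzmb 2531 against 2026 CPM. Genes listed for ILC1s did not fall just outside the rule. Cd160 averaged 420 CPM inside against 498 CPM outside, Inpp4b 151 against 161 CPM, and Asb2 112 against 120 CPM. Xcl1 averaged 2002 against 2037 CPM and Il21r 159 against 158 CPM.

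Whole libraries held 10745 to 27873 barcodes in BG mice and 11984 to 16432 in Control mice. BG replicate 5 stood apart: it had the most barcodes, only 34 genes in its median barcode, a mitochondrial share of 66.6% and the fewest ILC1-like cells. Pairs of libraries shared 5 to 26 kept barcode sequences, and no ILC1-like barcode was shared in any of the 28 pairs. In the summed ILC1-like UMIs, 14 hepatocyte genes together had 205 to 712 CPM in BG and 226 to 469.9 CPM in Control mice, 12 endothelial genes 96.7 to 222 against 85.7 to 237 CPM, and 12 B cell genes 269 to 661 against 426 to 1073 CPM. The 13 macrophage genes had 45.5 to 606 CPM in BG mice and 28.8 to 149 CPM in Control mice, and in BG replicate 5 a lone cell held 112 of the 113 UMIs of Lyz2, the lysozyme of myeloid cells. The part of such cells in the results was not tested beyond a stricter rule that also required 0 UMIs of Siglech, Lyz2, Hbb-bs, Ms4a1, C1qa and Stab2.

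The ILC1-like label was checked on genes outside the rule, against the 551 conventional NK cells of the same livers, which were gated on Ncr1 or Klrb1c with Eomes or Itgam and had fewer than 2 of the 5 ILC1 genes. These levels are a description with no test, since both gates chose their cells by measured values. Il21r, the receptor of interleukin 21, had a median of 157 CPM over the 8 mice in ILC1-like cells and 26.8 CPM in conventional NK cells. Inpp4b, a lipid phosphatase, had 155 against 14.3 CPM, and Asb2, a subunit of a ubiquitin ligase, had 127 against 10.2 CPM. Cxcr3, a chemokine receptor of type 1 lymphocytes, had 163 against 29.6 CPM. All 4 genes were higher in ILC1-like than in NK cells in 8 of 8 mice. This check concerns NK cells only, and levels in NKT-like cells are given below. Also higher in 8 of 8 mice were Xcl1, a chemokine that attracts cross-presenting dendritic cells (2066 against 668 CPM), Ltb, a cytokine of the lymphotoxin family (544 against 117 CPM), Cd160, a receptor of HVEM (429.8 against 101 CPM), and Il7r, the interleukin 7 receptor (89.0 against 16.2 CPM). Cd7, which encodes a membrane protein of T and NK cells, was higher in 8 of 8 mice as well (1631 against 279 CPM).

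Of 21 genes listed for conventional NK cells, 17 were lower in ILC1-like than in NK cells in 8 of 8 mice, 1 was higher in 8 of 8 and 3 were neither. The exceptions were Itgax, an integrin chain (220.1 CPM in ILC1-like against 119 CPM in NK cells, higher in 8 of 8 mice), Cd27, a costimulatory receptor (106 against 50.8 CPM, higher in 6 of 8), Gzma (6830 against 8257 CPM, higher in 2 of 8) and Ccl5 (11028 against 11851 CPM, higher in 1 of 8). Klra4 and Klra8, which encode Ly49 receptors, had medians of 0.531 and 7.46 CPM in ILC1-like cells, against 624 and 517 CPM in NK cells. Zeb2, a transcription factor of terminal NK maturation, had 13.0 against 438 CPM. Cma1, a serine protease gene, had 0 UMIs in the ILC1-like cells, which allows up to 0.740 CPM in their summed 4055002 UMIs (3 counts, counting error only), against 162 CPM in NK cells. Prf1, which encodes the pore-forming perforin, had 219 against 883 CPM, whereas Gzmb, the granzyme B gene, had 2713 against 902 CPM. Thus the ILC1-like cells held more Gzmb and less Prf1 mRNA than NK cells in 8 of 8 mice each.

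Of 20 genes listed for ILC1s outside the rule, 14 were higher in ILC1-like than in NK cells in 8 of 8 mice. Il18r1, a chain of the interleukin 18 receptor, was the 1 member lower in ILC1-like than in NK cells in 8 of 8 mice (19.0 against 166 CPM). Zfp683, the gene of the residency factor Hobit, had 57 UMIs in all ILC1-like cells and 3 in NK cells (means of 13.4 against 2.29 CPM, higher in 7 of 8 mice), and was detected in 2.14% of the ILC1-like cells thinned to 1500 UMIs each, against 0.202% of NK and 0.0215% of B cells. Tbx21, the gene of T-bet, had 117 CPM in ILC1-like and 133 CPM in NK cells, and ILC1-like cells were higher in 2 of 8 mice. Of 8 genes listed for type 2 innate lymphoid cells, 2 had 0 UMIs (Il1rl1 and Il5), and Il13, Areg, Il17rb, Calca and Ptgdr2 had 1 to 4 UMIs each. The remaining member, the transcription factor gene Gata3, had 423 UMIs, with a median of 107 CPM in ILC1-like and 74.5 CPM in NK cells. The list summed to 71.2 to 122 CPM in BG and 99.5 to 117 CPM in Control mice. Of 7 genes listed for type 3 innate lymphoid cells, 5 had 0 UMIs, among them Il22, Il23r, Il17a and Il17f. Tmem176b, a membrane protein gene that the ILC1 list also holds, had 381 UMIs, and the list summed to 72.9 to 128 CPM in BG and 66.7 to 108 CPM in Control mice.

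**Figure D1:**
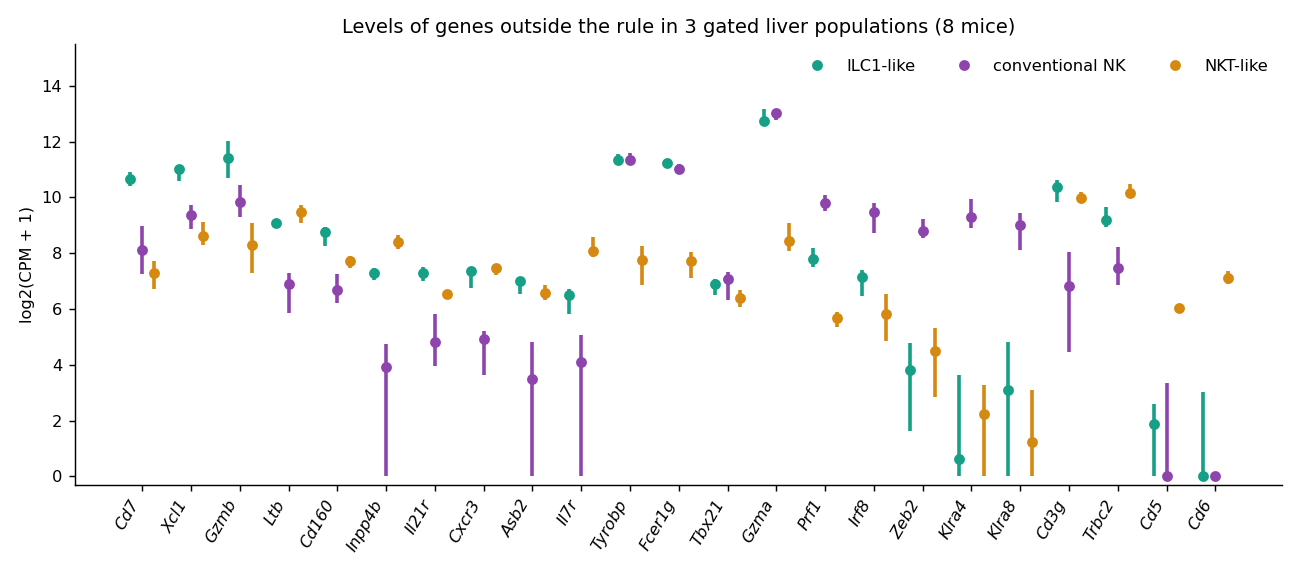
Levels of 23 genes that the rule did not use, in ILC1-like cells, conventional NK cells and NKT-like cells of the same 8 livers. The vertical axis is log2(CPM + 1), points are medians over 8 mice and bars run to the lowest and highest mouse; Cd7, Gzmb, Il21r and Asb2 lie higher in ILC1-like than in conventional NK cells, Prf1, Zeb2, Klra4 and Klra8 lie lower, and Cd3g lies near the level of NKT-like cells.

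Not every gene kept T cells apart from the members. Whether members with UMIs of T cell genes are ILC1s or T cells without detected Cd3e, Cd3d and Trac was not tested. The name ILC1-like stands for the cells that met the rule. Cd3g encodes a chain of the CD3 complex and was not part of the rule. It had a median of 1319 CPM in ILC1-like cells and 114 CPM in conventional NK cells. In the 4724 NKT-like cells (Klrb1c and Cxcr6 with Cd3e, Cd3d or Trac) the median was 1014 CPM, and ILC1-like cells were higher in 7 of 8 mice. Thinned to 1500 UMIs, 58.8% of 1404 ILC1-like cells had a Cd3g UMI, as did 6.65% of NK, 77.0% of NKT-like and 1.03% of B cells. Median UMIs per cell before thinning were 2666 in ILC1-like, 2333 in NK, 3157 in NKT-like and 1871 in B cells. Trbc2, a constant region of the T cell receptor beta chain, was found in 54.9% of ILC1-like, 21.8% of NK, 76.5% of NKT-like and 1.25% of B cells. Trbc1, the other such constant region, was found in 50.4% of ILC1-like, 29.6% of NK, 43.8% of NKT-like and 1.20% of B cells, with median levels of 493, 248 and 719.6 CPM in ILC1-like, NK and NKT-like cells, so that no order of ILC1-like and NKT-like cells is read from it. Tcrg-C4, a constant region of the gamma chain, had medians of 150.1, 8.64 and 110.4 CPM in ILC1-like, NK and NKT-like cells. By contrast, the T cell surface genes Cd5 and Cd6 were each found in 0.285% of ILC1-like cells, against 8.77% and 18.9% of NKT-like cells, and in 0.280% and 0.194% of B cells. Tyrobp and Fcer1g, adaptors of NK receptors, were found in 93.9% and 94.7% of ILC1-like cells, against 11.4% and 12.2% of NKT-like cells and 7.59% and 3.23% of B cells. Some genes that lay higher in ILC1-like than in NK cells did not lie higher than in NKT-like cells. Inpp4b had medians of 155 CPM in ILC1-like against 340 CPM in NKT-like cells, Il7r 89.0 against 268 CPM, and Ltb 544 against 720 CPM. Each was higher in ILC1-like cells in 0 of 8 mice, and Cxcr3 (163 against 176 CPM) in 1 of 8. Il21r, Xcl1, Cd160 and Cd7 were higher in ILC1-like than in NKT-like cells in 8 of 8 mice, and Asb2 in 7 of 8. A rule that also asked for 0 UMIs of Cd3g, Trbc1, Trbc2 and Trdc left 29 cells in BG and 41 in Control mice. Between 4 and 9 cells a mouse remained in BG and between 5 and 15 in Control livers. No BG mouse then reached the minimum of 10 cells, so that the comparison between groups was not run on them.

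Cells with and without a Cd3g UMI differed in other genes, in a split chosen after the values were seen and given here as a description (thinned cells, levels as CPM, means ± SD over 8 mice). Klra5, which encodes a Ly49 receptor, had 369.7 ± 71.2 CPM in cells with Cd3g and 15.6 ± 19.0 in cells without. Gzma, the granzyme A gene, had 10477 ± 1419 against 3289 ± 770, and Gzmb had 3461 ± 910 against 1666 ± 479. These 3 genes, and also Lag3, Klri2, Itga1, Tyrobp and Ccl5, were higher in cells with Cd3g in 8 of 8 mice. Il7r, Cd28, Rora, Tmem176a, Tmem176b, Emb, Ccr2 and Thy1 were lower there in 8 of 8 mice, with Il7r at 28.9 ± 13.5 in cells with Cd3g and 181 ± 84.3 in cells without. Isg15, an interferon gene, did not go with the split (122 ± 77.8 against 125 ± 76.8, higher in 5 of 8 mice). Between 50.7% and 58.9% of the thinned cells of BG mice had a Cd3g UMI, and between 45.5% and 71.2% of those of Control mice.

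**Figure D2:**
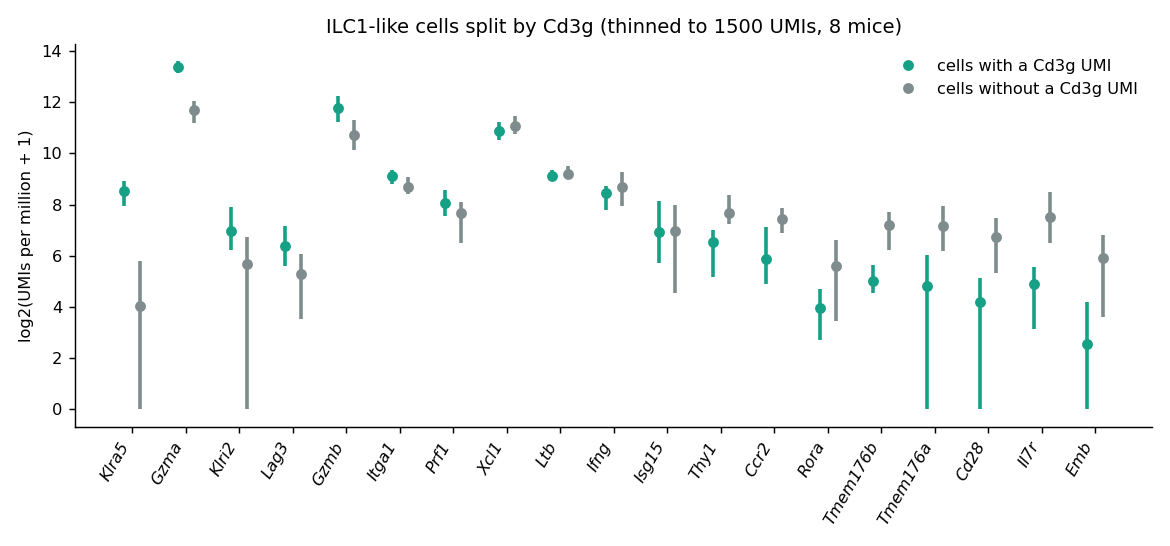
Levels of 19 genes in ILC1-like cells with and without a UMI of Cd3g, each cell thinned to 1500 UMIs. The vertical axis is log2(CPM + 1), points are means over 8 mice and bars run to the lowest and highest mouse; Klra5, Gzma and Gzmb lie higher in cells with Cd3g, Il7r, Cd28 and Emb lie lower, and Isg15 lies alike.

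No difference in the share of ILC1-like cells was detected between the groups. They were 1.92% (95% Wilson interval 1.55 to 2.37), 2.56% (2.18 to 3.0), 3.42% (2.94 to 3.97) and 3.57% (3.12 to 4.08) of the kept cells of BG mice. In Control mice they were 4.29% (3.83 to 4.79), 2.03% (1.72 to 2.39), 2.93% (2.58 to 3.32) and 2.91% (2.52 to 3.36). The groups overlapped, and mice of 1 group differed beyond counting error. The mean was 2.87% ± 0.773 in BG and 3.04% ± 0.932 in Control mice (SD, n = 4 each), a difference of -0.172 percentage points (two-sided exact permutation test, p = 0.8). Without Control replicate 1 or BG replicate 5 the difference was 0.244 or 0.144 points. Among ILC1-like and conventional NK cells together, the ILC1-like share was 60.1% to 74.5% in BG mice (mean 68.0%) and 74.0% to 76.1% in Control mice (mean 75.4%), a difference of -7.41 points that did not pass the same exact permutation test (p = 0.0571; the smallest p this design allows is 0.0286).

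Levels of the genes in the rule are given for completeness. Itga1 ran from 382 to 490.5 CPM in BG mice and from 469 to 586 CPM in Control mice, and Cxcr6 from 253 to 331 against 282 to 356 CPM. Tnfsf10, which type I interferon can induce, ran from 265 to 321 CPM in BG and from 282 to 324 CPM in Control mice. Gzmc, a granzyme gene, ran from 499 to 839 against 488 to 809.6 CPM, Cd200r1, an inhibitory receptor, from 116 to 178 against 119 to 159 CPM, and Ncr1 from 561 to 617 against 500 to 679 CPM. Klrb1c ran from 560 to 613 CPM in BG and from 598 to 730 CPM in Control mice. The 10 genes required at 0 UMIs had none.

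BG-treated ILC1-like cells showed higher levels of interferon-induced genes (20 of 52 tested) and of the granzyme gene Gzmb. Also called higher were 5 of 23 cell cycle genes, 4 of them Mcm genes of DNA replication, and 3 of 15 heat shock genes, none of which was called without Control replicate 1. Jun and Fosb, which encode transcription factors, were called lower, and each lost its call when certain single mice were left out. Of 5666 genes tested, 39 were called higher, or 0.688%, and 2 were called lower, or 0.0353% (edgeR quasi-likelihood test, Benjamini-Hochberg adjusted p under 0.05 and log2 fold change over 0.5 or under -0.5). An unadjusted p under 0.05 was reached by 501 genes. The BG and Control mice did not overlap for 186 genes that were higher with BG (3.28%) and for 115 that were lower (2.03%). Over all tested genes the median log2 fold change was 0.00. Without BG replicate 5 the counts were 36 higher and 4 lower, and with 0 UMIs of genes of other cells they were 40 higher and 5 lower. The number called higher was 23 without Control replicate 1, 25 without BG replicate 7, and 9 among cells with at most 10% mitochondrial UMIs, where 1733 genes in 7 mice could be tested. The median mitochondrial share of the members was 9.48% to 21.7% in BG and 10.8% to 16.3% in Control mice, and its part in the result was not tested beyond that setting.

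Among 52 tested genes of a list of type I interferon genes, 20 were called higher and none lower, 52 of 52 had a positive log2 fold change, and 33 did not overlap between the groups. Their median log2 fold change was 0.83. Fewer were called with stricter cells: 11 where 3 of the 5 ILC1 genes were asked for, and 2 with at most 10% mitochondrial UMIs, where the type I interferon genes, median log2 fold change, stood at 0.39. These settings had 3534 and 1733 genes to test, against 5666, so each count and the median cover only the list members tested there. With 0 UMIs of genes of other cells 18 were called. Rnf213, which encodes an antiviral ubiquitin ligase (chr11:119393100-119487418, plus strand, GRCm38), had 204, 128, 232 and 198 CPM in BG mice and 72.4, 67.5, 69.4 and 63.2 CPM in Control mice. Its lowest BG mouse lay above its highest Control mouse by more than the whole range of the Control group. It rose 2.74-fold (log2 fold change 1.46 ± 0.17 SE, adjusted p = 2.32e-05). Rtp4, a chaperone of membrane receptors that interferon induces (chr16:23520291-23614222, plus strand), had 121, 72.4, 146 and 89.98 CPM in BG mice and 25.9, 16.9, 36.5 and 11.7 CPM in Control mice, and rose 4.28-fold (2.10 ± 0.26, adjusted p = 4.28e-05). Oas3, an oligoadenylate synthetase that senses double-stranded RNA, had 60.6, 46.8, 66.9 and 47.6 CPM in BG mice and 13.0, 16.9, 11.0 and 11.7 CPM in Control mice (2.08 ± 0.27, adjusted p = 8.33e-05). In each of these genes the 4 BG mice were all above the 4 Control mice.

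Isg15, which encodes a ubiquitin-like protein that is attached to other proteins during antiviral responses (chr4:156199424-156200818, minus strand), had 198, 136, 268 and 125 CPM in BG mice and 76.7, 87.8, 63.9 and 39.8 CPM in Control mice. The groups did not overlap, and BG replicate 7 was highest. It rose 2.66-fold (1.41 ± 0.22, adjusted p = 0.000633). Factors of the pathway rose as well. Irf7, the factor that amplifies interferon transcription, had 116, 68.1, 126 and 81.2 CPM in BG mice and 47.6, 47.3, 34.7 and 39.8 CPM in Control mice (1.15 ± 0.21, adjusted p = 0.00442). Irf9, a DNA-binding factor of the pathway, had a log2 fold change of 1.03 (adjusted p = 0.00578).

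The other members named by the fixed rule were sensors and effectors of the antiviral response. Zbp1, a sensor of Z-form nucleic acids, rose to 171, 111, 146 and 116 CPM in BG mice, against 57.3, 47.3, 54.8 and 67.8 CPM in Control mice (log2 fold change 1.18 ± 0.17, adjusted p = 0.000243). Ifi206, a member of the family of nucleic acid sensors with a pyrin domain, rose to 110.1, 129.9, 114 and 102 CPM, against 43.2, 57.4, 56.6 and 37.4 CPM in Control mice. Eif2ak2, the kinase PKR that stops translation upon double-stranded RNA, rose to between 45.9 and 70.9 CPM in BG mice, against 16.4 to 30.4 CPM in Control mice. Xaf1, a promoter of apoptosis, and Trim30a, a ubiquitin ligase of the TRIM family, had log2 fold changes of 1.39 ± 0.22 and 0.98 ± 0.18, again with no overlap of the groups. Ifi27l2a had the highest log2 fold change of the named genes (2.45 ± 0.37, adjusted p = 0.000381), with 380, 74.5, 203 and 118 CPM in BG mice and 16.2, 60.8, 42.0 and 21.1 CPM in Control mice. In BG replicate 5, however, 44 of its 69 UMIs came from a lone cell, and only 5.41% of the thinned ILC1-like cells had a UMI of it, against 52.6% of NKT-like and 43.4% of B cells.

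Promoter sequences were looked up in a RefSeq table (GRCm38.p6, 250 bases before to 50 after the start), which held 10 of the 15 genes with the smallest p among those called higher. The motif searched was GAAA, any 2 bases and GAAA again, the core of the interferon-stimulated response element, on both strands (TTTC, any 2 bases and TTTC on the opposite one). It was found in 5 of these 10 genes (Oas3, Ifi206, Isg15, Trim30a and Eif2ak2), in 10 of the 31 called higher that the table held (32.3%), in 4.54% of the 4559 tested genes in it and in 3.44% of its 32851 promoters. Trim30a has 2 promoters in the table, and 1 is printed. Shown, 5′ to 3′ on the strand of the gene, are the 4 with the smallest p among those with a match to the searched motif, with bases of a match in capitals. They lie at chr5:120777610-120777909 (Oas3), chr1:173491269-173491568 (Ifi206), chr4:156200769-156201068 (Isg15) and chr7:104465144-104465443 (Trim30a), all on the minus strand. Isg15 holds 3 overlapping matches, which begin at position -78 from the start, and the others hold 1 match each, at -75 in Oas3, -40 in Ifi206 and, on the opposite strand, -36 in Trim30a. A match is a description of the letters and was not tested as a binding site.
Oas3: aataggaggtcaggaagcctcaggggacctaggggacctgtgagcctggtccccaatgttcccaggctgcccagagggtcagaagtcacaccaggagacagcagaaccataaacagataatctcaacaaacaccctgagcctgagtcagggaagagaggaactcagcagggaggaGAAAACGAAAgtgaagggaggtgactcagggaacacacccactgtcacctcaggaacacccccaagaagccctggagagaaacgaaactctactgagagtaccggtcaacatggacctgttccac
Ifi206: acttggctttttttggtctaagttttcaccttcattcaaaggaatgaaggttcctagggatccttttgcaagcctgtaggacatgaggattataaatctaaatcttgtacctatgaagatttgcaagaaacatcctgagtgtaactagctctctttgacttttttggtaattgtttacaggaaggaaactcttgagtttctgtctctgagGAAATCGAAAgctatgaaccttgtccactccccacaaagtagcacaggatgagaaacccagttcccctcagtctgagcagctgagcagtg
Isg15: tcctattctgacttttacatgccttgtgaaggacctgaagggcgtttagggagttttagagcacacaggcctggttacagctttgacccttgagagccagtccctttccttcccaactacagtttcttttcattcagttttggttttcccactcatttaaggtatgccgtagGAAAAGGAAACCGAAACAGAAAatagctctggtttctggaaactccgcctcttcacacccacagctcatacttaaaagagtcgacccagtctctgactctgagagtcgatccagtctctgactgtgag
Trim30a: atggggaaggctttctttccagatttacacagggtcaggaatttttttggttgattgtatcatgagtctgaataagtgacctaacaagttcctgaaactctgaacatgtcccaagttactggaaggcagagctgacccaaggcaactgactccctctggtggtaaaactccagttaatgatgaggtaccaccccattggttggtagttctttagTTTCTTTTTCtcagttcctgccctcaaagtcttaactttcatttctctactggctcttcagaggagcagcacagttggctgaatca

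**Figure D3:**
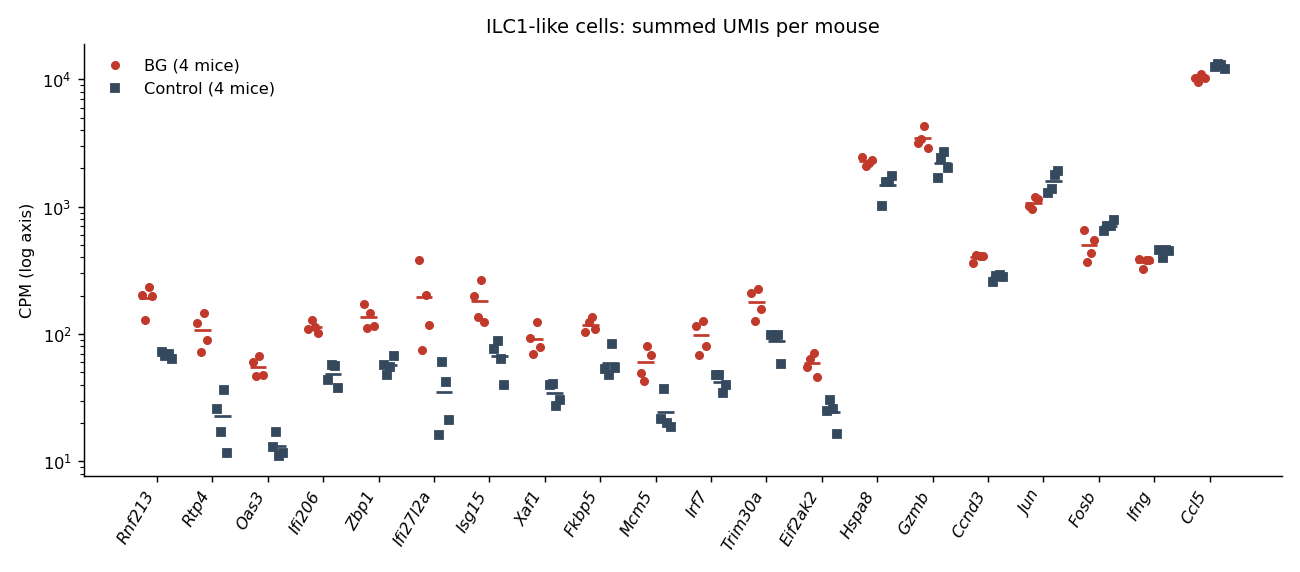
Levels of 20 named genes in the summed ILC1-like cells of each mouse. The vertical axis is CPM on a log axis, each point is 1 mouse, and short lines are the means of 4 BG mice and 4 Control mice; Rnf213, Oas3, Isg15, Gzmb and Hspa8 lie higher in all BG mice, and Jun lies lower.

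The rise of interferon genes was spread over the cells. With each cell thinned to 1500 UMIs, the 52 tested interferon genes together had a median of 11, 10, 11 and 9 UMIs per cell in BG mice and of 8, 7, 7 and 7 UMIs per cell in Control mice. Cells with 10 or more such UMIs were 60%, 56.2%, 67.7% and 49.5% of the cells in BG mice, against 25.5%, 21.5%, 24.3% and 25.7% in Control mice. Cells with 3 or fewer were 2.67%, 0%, 1.83% and 3.96% in BG mice and 7.93%, 9.23%, 9.01% and 11.4% in Control mice. The 75th percentile of the Control cells (9 to 10 UMIs per cell) was near the median of the BG cells, and the 25th percentile lay at 7 to 8 UMIs per cell in BG and 5 to 6 in Control mice. As the same genes and mice gave the calls above, these values add a description, not a test. The ranges of each measure did not overlap between the groups.

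**Figure D4:**
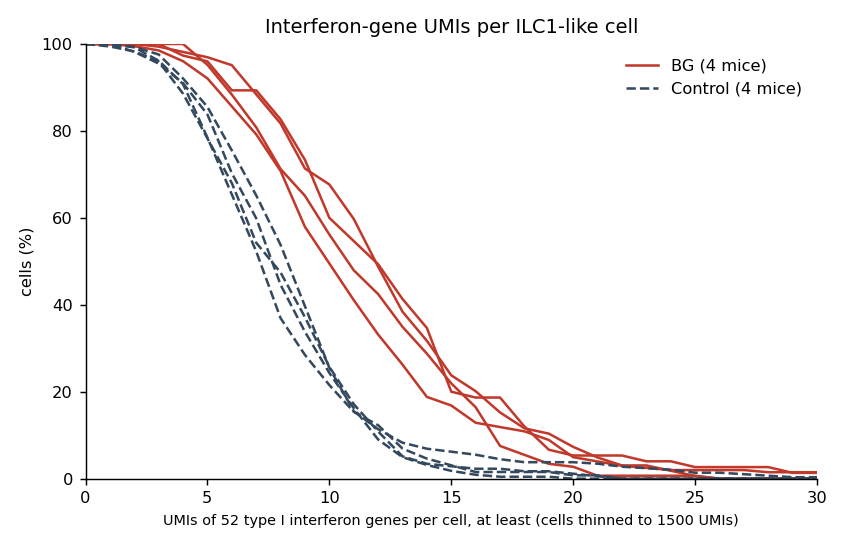
Share of ILC1-like cells with at least a given number of UMIs of 52 type I interferon genes, each cell thinned to 1500 UMIs. The horizontal axis is the number of UMIs per cell, the vertical axis the percentage of cells, and each line is 1 mouse; at 10 UMIs the BG mice lie between 49.5% and 67.7% and the Control mice between 21.5% and 25.7%.

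Among genes linked to interferon gamma and antigen presentation, 1 was called higher in each of 2 lists. Over all tested genes 0.688% were called higher, and 2850 of 5666 had a positive log2 fold change. BG mice lay above all Control mice for 2 genes of the interferon gamma list and 4 of the MHC class I list, against 3.28% of all tested genes. Of 17 tested genes on the interferon gamma list, only Gbp6, a guanylate-binding protein that attacks pathogen vacuoles, was called higher, with 55.1, 63.9, 68.9 and 56.5 CPM in BG mice and 32.4, 20.3, 21.9 and 30.4 CPM in Control mice (log2 fold change 1.16 ± 0.23, adjusted p = 0.00578). The median of the list was 0.11. Irf1, the main transcription factor of that response, had a log2 fold change of -0.27 (adjusted p = 0.594). Of 24 tested MHC class I genes, Psme2, a subunit of the proteasome activator, was called higher (0.55 ± 0.12, adjusted p = 0.0125; lost without Control replicate 3 or 4 or BG replicate 7), and 20 had a positive log2 fold change with a median of 0.17. B2m, the MHC class I light chain, had 3518, 2792, 3425 and 3633 CPM in BG mice and 3112, 2869, 2512 and 2542 CPM in Control mice, which overlapped (0.27 ± 0.10, adjusted p = 0.339).

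Among 15 tested cytotoxic genes, Gzmb was called higher. It had 3166, 3396, 4342 and 2916 CPM in BG mice and 1686, 2417, 2715 and 2021 CPM in Control mice (chr14:56258838-56262260, minus strand). All BG mice lay above all Control mice, and the gene rose 1.57-fold (log2 fold change 0.65 ± 0.13, adjusted p = 0.00578). Gzma had 6952 to 9472 CPM in BG and 6261 to 7872 CPM in Control mice, with a log2 fold change of 0.21 ± 0.11 (adjusted p = 0.594). Prf1 had 0.29 ± 0.12 (adjusted p = 0.482), and the median of the list was 0.21. Gzmb was called in each of the other settings tried, the leave-outs included, and no other gene of the list passed the test.

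No gene of the cytokine and chemokine list was called in either direction, among 10 tested. That is near the share over all tested genes, of which 0.688% were called higher and 0.0353% lower. Ifng, the interferon gamma gene and hallmark product of ILC1s, had 385, 324, 384 and 383 CPM in BG mice and 459, 395, 456 and 447 CPM in Control mice. The groups did not overlap, with BG lower, but the difference did not pass the test (log2 fold change -0.27 ± 0.11, adjusted p = 0.401). The chemokine gene Ccl5 showed the same pattern, with 10279, 9621, 11066 and 10352 CPM in BG mice and 12528, 13311, 13017 and 12006 CPM in Control mice (-0.30 ± 0.09, adjusted p = 0.188). Tnf, which encodes the tumor necrosis factor, had a log2 fold change of 0.91 (adjusted p = 0.4) from 72 UMIs in BG and 48 in Control mice.

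Identity and residency genes were not called. None of 16 tested ILC1 genes outside the rule, 16 residency and homing genes, 25 transcription factors, 26 cytokine receptor and signaling genes or 27 NK receptors and adaptors passed in either direction, and the medians of these lists lay between -0.10 and 0.07. Over all tested genes 0.688% were called higher and 0.0353% lower, and lists of this size would hold few or no calls at that share. This also holds for the other lists without a call. Tbx21 had a log2 fold change of 0.07 ± 0.15 (adjusted p = 0.947) and Il7r of -0.00 ± 0.20 (adjusted p = 0.999). Rgs2, a regulator of G protein signaling, was lower in all BG mice (464 to 575 CPM) than in all Control mice (609.7 to 732 CPM) without passing the test (-0.33 ± 0.10, adjusted p = 0.176). The 7 tested genes of the T cell receptor complex, with 2223 to 2669 CPM in BG and 2550 to 3166 CPM in Control mice as the sum of the 14 genes of that list, had a median of -0.21 and none was called. Id2, the factor that innate lymphoid cells need for their development, had 0.16 ± 0.10 (adjusted p = 0.686), and Cd69, a receptor of activated and resident lymphocytes, had -0.18 ± 0.14 (adjusted p = 0.782).

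Of 23 tested cell cycle genes, 5 were called higher, namely Mcm2, Mcm3, Mcm5 and Mcm7, subunits of the helicase that opens DNA for replication, and Ccnd3, the cyclin D3 of the G1 phase; the median of the list was 0.47. Mcm5 had 49.6, 42.6, 80.7 and 68.8 CPM in BG mice and 21.6, 37.1, 20.1 and 18.7 CPM in Control mice (log2 fold change 1.44 ± 0.26, adjusted p = 0.00433). Control replicate 2 was the highest of its group and still below all BG mice. Ccnd3 had 363, 415, 413 and 413 CPM in BG mice and 258, 287, 292 and 278 CPM in Control mice (0.55 ± 0.11, adjusted p = 0.00578), a call that was lost without Control replicate 1. Cells with a UMI of the proliferation genes Mki67 or Top2a had been left out by the rule, so that cells with a UMI of either are not among the members. Without Control replicate 1 or 3 the calls in this list numbered 3, and without BG replicate 7 they numbered 2. They numbered 2 where 3 of the 5 ILC1 genes were asked for, 7 with 0 UMIs of genes of other cells and 1 with at most 10% mitochondrial UMIs, where the cell cycle genes, median log2 fold change, stood at 0.12. Each of these values covers only the list members that could be tested in that setting. Of the 23 genes, 19 had a positive log2 fold change, and the lowest was -0.32.

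Of 15 tested heat shock genes, Hspa8, Hsp90ab1 and Hspe1, the last a chaperone of mitochondria, were called higher, and the log2 fold changes of the list ran from -0.58 to 0.75 with a median of 0.19. Hspa8, the constitutive cytosolic HSP70, had 2450, 2076, 2210.5 and 2347 CPM in BG mice and 1022, 1559, 1561 and 1752 CPM in Control mice (0.63 ± 0.12, adjusted p = 0.00563). Control replicate 1 was lowest in Hspa8, Hsp90ab1 and Hspe1, and without it none of the 3 was called (Hspa8 log2 fold change 0.48, Hsp90ab1 log2 fold change 0.48, Hspe1 log2 fold change 0.58). Hspe1 was also lost without BG replicate 7 or 8. Fkbp5, a co-chaperone of the glucocorticoid receptor that glucocorticoids induce, had 105, 124, 136 and 109 CPM in BG mice and 53.0, 47.3, 84.0 and 53.8 CPM in Control mice (0.99 ± 0.18, adjusted p = 0.00362), with no overlap. The list medians of ribosome biogenesis genes (0.12, 16 tested), ribosomal proteins (0.09, 79 tested) and nuclear genes of the respiratory chain (0.13, 85 tested) were a little above 0 with no gene called in them. The 13 genes of the mitochondrial genome all had positive log2 fold changes (median 0.22, none called). None of 13 glycolysis genes (median -0.00) or 15 survival and death genes (median 0.16) was called.

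Immediate early genes, which encode fast-responding transcription factors and their regulators, held both genes called lower. Jun, a subunit of AP-1, fell to 1013, 965, 1185 and 1147 CPM in BG mice, against 1282, 1387, 1767 and 1895 CPM in Control mice (log2 fold change -0.55 ± 0.11, adjusted p = 0.00971). Fosb, its partner, had 661, 366, 433 and 545 CPM in BG mice and 641, 709, 708 and 784 CPM in Control mice (-0.54 ± 0.13, adjusted p = 0.0348), and the groups overlapped through BG replicate 5. Jund had 1316, 1246, 1472 and 1352 CPM in BG mice and 1851, 1772, 1884 and 1874 CPM in Control mice; it passed on the adjusted p but not on the fold (-0.45 ± 0.09, adjusted p = 0.00578). Neither call was firm: Jun was no longer called without Control replicate 3 or 4 or BG replicate 5 or 6, and Fosb without any Control replicate or without BG replicate 6 or 7. The median of the 23 tested genes was -0.10. Of 14 tested NF-kB feedback genes none was called (median -0.14).

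**Figure D5:**
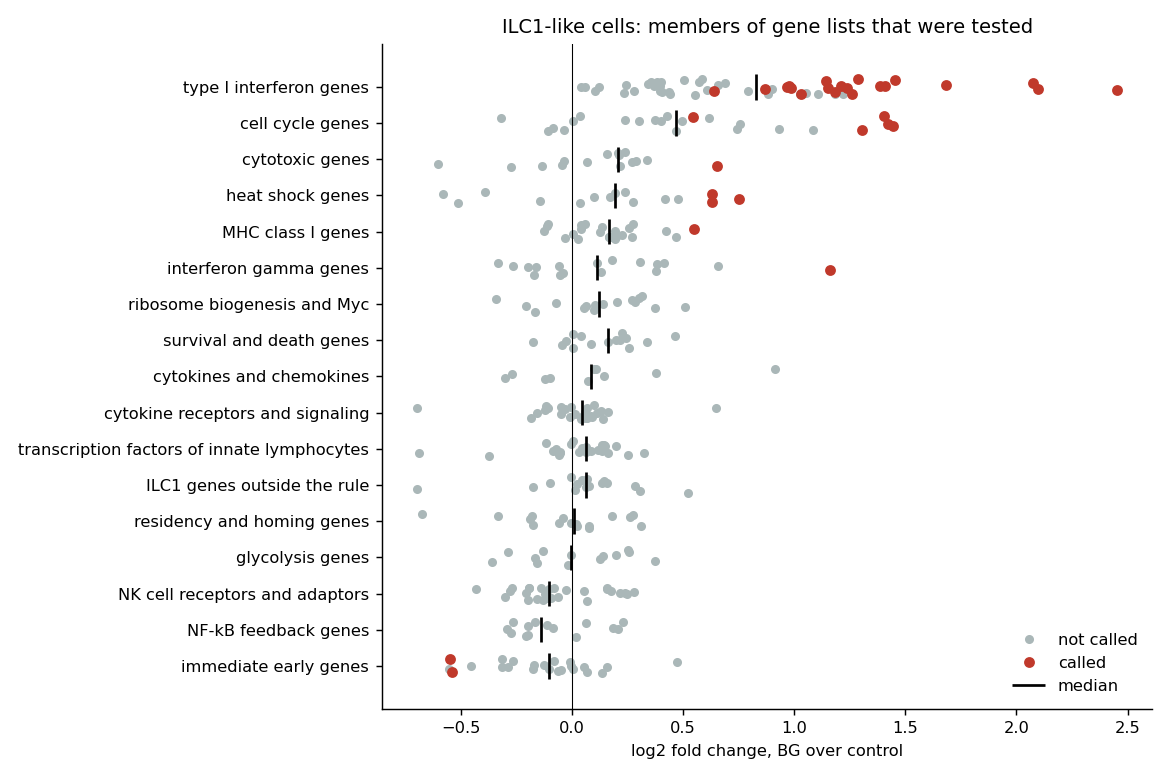
Log2 fold changes, BG over Control, of the tested members of 17 gene lists in ILC1-like cells. Each point is 1 gene, red points were called by the edgeR test and black lines are medians; the type I interferon list has 20 called genes and a median of 0.83, and the medians of the identity lists lie near 0.

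The lists and their tests were also set beside the same genes in the neighboring lymphocytes of the same mice. In conventional NK cells 6 of 2393 tested genes were called higher (0.251%), and in NKT-like cells 126 of 8807 (1.43%), from fewer and more cells than in the ILC1-like population. Gzmb had log2 fold changes of 0.65 in ILC1-like, 0.68 in NK (adjusted p = 0.0188) and 0.94 in NKT-like cells (adjusted p = 0.00148). Isg15 had 1.41 in ILC1-like and 1.33 in NKT-like cells, and Jun -0.55 in ILC1-like, -0.60 in NK and -0.71 in NKT-like cells. To learn whether a response was particular to the ILC1-like cells, the difference of the responses was tested with the mouse as a block.

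Against conventional NK cells, 1 of 4352 genes was called (0.023%; 259 at an unadjusted p under 0.05). It was Cd3g, with a difference of 1.65 ± 0.29 on the log2 scale (adjusted p = 0.00288), which came from the NK cells: these had 59.6 ± 52.01 CPM in BG and 176 ± 76.4 CPM in Control mice, from 45 and 128 UMIs, whereas ILC1-like cells had 1189 ± 161 CPM in BG and 1292 ± 284 CPM in Control mice (SD, n = 4 each). The call was lost without Control replicate 1, Control replicate 3, BG replicate 5 or BG replicate 8. None of 43 tested interferon genes was called, and their median difference was 0.24, against -0.00034 over all tested genes. Of the 43 differences, 31 were positive. The NK cells held few UMIs of such genes, with 35 of Isg15 in BG and 12 in Control mice, and 46 and 32 of Rnf213. The lack of a call is therefore not read as an equal response.

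Against NKT-like cells, 7 of 7876 genes were called (0.0889%; 406 at an unadjusted p under 0.05). Of these, 6 belong to other cells: the hemoglobin genes Hbb-bt, Hbb-bs, Hba-a1 and Hba-a2, the plasmacytoid dendritic cell gene Siglech and the myeloid gene Lyz2. Lone cells held most of the hemoglobin UMIs of the members, with 551 of 553 Hbb-bs UMIs in 1 cell of BG replicate 6 and 727 of 732 in 1 cell of BG replicate 7. Siglech turned on the NKT-like cells, which had 2 UMIs of it in BG and 109 in Control mice. With the stricter rule on genes of other cells, Ifi27 was the only gene called.

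Ifi27, an interferon-induced protein of the mitochondrial membrane (chr12:103434211-103440239, plus strand), had 188, 141, 175 and 144 CPM in the ILC1-like cells of BG mice and 109, 111, 97.0 and 88.5 CPM in those of Control mice. In NKT-like cells of the same livers it had 127, 113, 117 and 134 CPM in BG and 139, 148, 125 and 130 CPM in Control mice. The groups did not overlap in ILC1-like cells and did overlap in NKT-like cells. The responses were a log2 fold change of 0.64 in ILC1-like and -0.16 in NKT-like cells, a difference of 0.79 ± 0.15 (adjusted p = 0.00504). Without BG replicate 7 it was no longer called. In conventional NK cells Ifi27 averaged 83.3 ± 44.5 CPM in BG and 60.2 ± 12.7 CPM in Control mice, and the difference of 0.30 ± 0.35 between the responses of ILC1-like and NK cells did not pass the test (adjusted p = 0.963). Over 61 tested interferon genes the median difference was 0.13, against 0.0062 over all tested genes. Of the 61 differences, 43 were positive, and Ifi27 was the 1 gene called.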

How the data were processed

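scRNAseq (10x 3' v3.1) libraries of 8 livers were used, with 1 library per mouse. The values are counts of UMIs per gene and barcode, which the authors deposited as filtered matrices made with Cell Ranger 6.1.2, per the file headers, on mm10, per the submitters' processing notes; 0 columns belonged to no sample. Library totals were 44184117 to 60654583 UMIs in BG and 39612380 to 46211839 UMIs in Control mice, and the summed ILC1-like cells had 202910 to 595913 UMIs in BG and 313380 to 910426 UMIs in Control mice. No doublet caller was run, and doublets were limited only by the maximum of 2500 genes and the genes required at 0 UMIs. UMIs were summed per mouse and tested with the quasi-likelihood test of edgeR 4.0.16 (R 4.3.3, TMM, filterByExpr), with Benjamini-Hochberg adjustment over all tested genes. The 17 genes of the rule stayed in the library sizes and were left out of the tests. CPM of the comparison between groups were scaled over the filtered genes, and levels across cell types and marker sums over all genes, so the same gene can differ slightly between them. Responses of cell types were compared by an interaction with the mouse as a block, and shares by a two-sided exact permutation test (scipy 1.17.1). P-values measure the spread between these mice, and intervals cover counting error only. The test script was tested on simulated data.

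Named genes were the 15 called higher and up to 10 called lower with the smallest p among those with no overlap of the groups, up to 4 called members of each response list or, where fewer than 2 were called, the 2 with the highest mean CPM, and Ifng, Gzma, Gzmb, Prf1, Tbx21, Zfp683, Il7r, Cd69, Irf7 and Isg15 where tested. Irf9 and Tnf, and the genes of the Cd3g split, were named after their values were seen. The members and lists were chosen with earlier results of these data known. Alternatives were DESeq2 1.42.0, RLE size factors, no filter on low counts, other rules for the cells, and each replicate left out. Gene positions are from GENCODE (GRCm38). Results of a few genes are not reported here.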

Additional observations from a re-analysis of the deposited data

Results flagged for a closer look

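In groups of 4 mice, a lone mouse lay far from the other 3 in 6 of 116 groups looked at, where chance gives about 1 in 20. Mcm5 had 37.1 CPM in Control replicate 2, against 18.7 to 21.6 CPM in the other Control mice, and Trim30a had 58.5 CPM in Control replicate 4, against 94.5 to 98.6 CPM. In BG mice, Ccnd3 had 363 CPM and Id2 1035 CPM in replicate 5, against 413 to 415 and 1172 to 1182 CPM in the others. Ifng had 324 CPM in BG replicate 6 (383 to 385 CPM in the others), and Mcl1 had 224 CPM in BG replicate 7 (283 to 293 CPM).

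The response to BG differed between cell types for 8 genes, by the test of the difference itself. On the log2 scale, the response of Cd3g was 1.65 higher in ILC1-like than in conventional NK cells. Against NKT-like cells, the response in ILC1-like cells was higher by 7.60 for Hbb-bt, 4.84 for Hba-a1, 4.76 for Hbb-bs, 4.37 for Hba-a2, 5.35 for Siglech, 3.16 for Lyz2 and 0.79 for Ifi27. Lone cells held most of the hemoglobin UMIs of the ILC1-like cells in BG replicates 6 and 7 (551 of 553 and 727 of 732 of Hbb-bs) and 112 of the 113 Lyz2 UMIs of BG replicate 5. Siglech averaged 26.4 CPM in BG and 27.5 CPM in Control mice in ILC1-like cells, against 0.361 and 14.6 CPM in NKT-like cells. With 0 UMIs of genes of other cells, Ifi27 was the only gene called against NKT-like cells.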

How the results depend on the processing

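Of 388 alternative values of the 25 named genes that were called, 347 kept their direction and call, and 0 reversed; none of the 28 named genes not called became called. Genes called higher numbered 39, against 63 with no filter on low counts, 18 with 3 of 5 ILC1 genes, 9 with at most 10% mitochondrial UMIs, and 23 to 42 when single mice were left out. Of these, 22 were shared with the 39 without Control replicate 1, and 25 without BG replicate 7. DESeq2 called 27 higher, all among the 39. Genes called lower numbered 2, against 1 with DESeq2, 10 with no filter, 5 with a rule without Tnfsf10, 6 with 3 of 5 genes, 1 with up to 5000 genes, 8 with at most 10% mitochondrial UMIs, 5 with 0 UMIs of genes of other cells (chosen after seeing the data), and 0 to 4 with single mice left out. With adjusted p alone, also chosen later, 41 were higher and 3 lower.

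The difference in share turned to 0.244 without Control replicate 1 and 0.144 without BG replicate 5 (range -0.509 to 0.244 percentage points with single mice left out). For the response against NK cells, 0 genes were called with no replicate block (184 at an unadjusted p under 0.05), 3 with 0 UMIs of genes of other cells and 0 to 2 with single mice left out, against 1. Against NKT-like cells these counts were 0 (296 unadjusted), 1 and 6 to 9, against 7. The rule with further T cell genes at 0 UMIs left too few cells for the gene test, which was not run. No paired analysis was possible because BG and Control mice share no replicate numbers.

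Directions also turned for genes that were not called. With at most 10% mitochondrial UMIs the Prf1 log2 fold change was -0.025, the Ccl4 log2 fold change 0.060, the Ets1 log2 fold change -0.075, the H2-K1 log2 fold change -0.021, the Ncl log2 fold change -0.033 and the Mcl1 log2 fold change -0.11. With 3 of 5 genes H2-K1 had -0.040, the Tbx21 log2 fold change was -0.043, Ncl had -0.077 and the Fcer1g log2 fold change was 0.027. With single mice left out, Ncl ran from -0.040 to 0.16, Fcer1g from -0.077 to 0.015, Mcl1 from -0.054 to 0.097 and the Il7r log2 fold change from -0.11 to 0.22. DESeq2 gave Mcl1 -0.0013 and Il7r 0.026, and the rule on genes of other cells gave Il7r 0.076. The causes were not tested. Zfp683 had too few UMIs to be tested.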
